A study of Caenorhabditis elegans with 36 samples.

Results

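L4 larvae of the nematode Caenorhabditis elegans labelled xnp-1;gsox-1 were compared with L4 larvae labelled gsox-1. L4 is the last larval stage. The 6 libraries, 3 of each genotype, were taken by their labels from the 36 libraries of the series, and 17492 of the 46926 genes in the L4 count table passed the filter on low counts and were tested. Both genotypes carry gsox-1, so the pair differs by xnp-1, and xnp-1;gsox-1 is also called the double mutant. Poly(A) RNA was extracted from whole animals that had grown at 25 °C since L1, and the labels call the 3 libraries of each genotype biological replicates. The labels name no allele, and nothing in them says how many animals or lines stand behind a library. L4 libraries of xnp-1 and of the wild type N2, grown in the same way with 3 libraries each, served as the other background. A separate table of xnp-1 and N2 embryos and L1 larvae, raised at 20 °C, was used where stated.

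The xnp-1 gene encodes the worm orthologue of ATRX, a chromatin remodeller of the SNF2 family. In mammals ATRX works with the chaperone DAXX to place histone H3.3 in heterochromatin. At L4 the hermaphrodite gonad makes sperm, the hypodermis prepares the last moult, and the intestine has yet to reach the high yolk production of the adult. RNA of whole animals mixes these tissues, so fewer cells of a type and less RNA per cell cannot be told apart.

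Total counts ran from 40295080 to 45391494 in double mutant libraries and from 39997100 to 43010645 in gsox-1 libraries, and levels are given as CPM, counts per 1e6 counts with libraries scaled by the trimmed mean of M values. Replicate 1 of the double mutant stood apart from the other 5 libraries. Genes of the mitochondrial genome took 5.52% of its counts, against 1.82% to 2.43% in the others, and its Pearson correlation with them over log2 CPM was 0.92 to 0.95. Replicate 1 of N2 had a share of 4.13%. The larval cuticle collagen dpy-7 had 891, 453 and 409 CPM in the double mutant and 428, 573 and 264 CPM in gsox-1 libraries. The adult cuticle collagen col-19 was between 0.988 and 8.30 CPM in the double mutant and between 0.194 and 13.3 CPM in gsox-1 libraries. The male neuron gene lov-1 reached at most 0.219 CPM in the double mutant and 0.352 CPM in gsox-1.

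**Figure D1:**
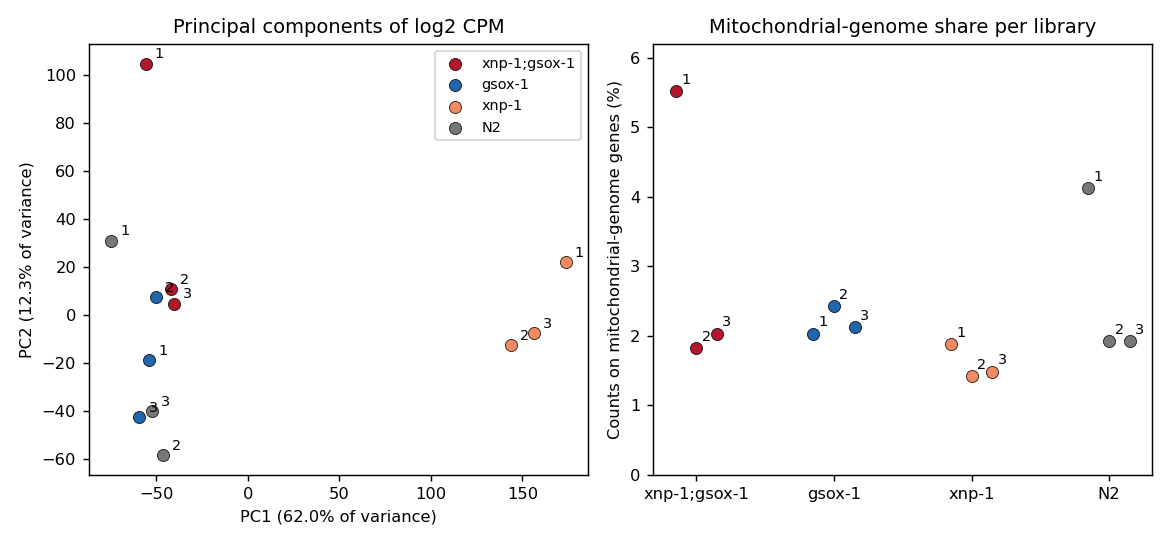
Left, the 12 L4 libraries on the first 2 principal components of log2 CPM. Right, the share of counts on mitochondrial-genome genes in percent. Colours are genotypes and digits are replicate numbers. The 3 xnp-1 libraries sit apart on PC1, and replicate 1 of xnp-1;gsox-1 is the highest library on PC2 and, at 5.52%, on the mitochondrial share.

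The xnp-1 transcript fell by 1.65 on the log2 scale in the double mutant (SE 0.21, edgeR adjusted p = 0.00433). It had 22.1, 28.7 and 37.3 CPM in double mutant libraries, against 89.2, 97.9 and 89.5 CPM in gsox-1 libraries, so the groups did not overlap and transcript remained in every double mutant library. In the wild-type background it had 39.5, 48.2 and 50.3 CPM in xnp-1 and 62.9, 74.3 and 89.3 CPM in N2 libraries (log2 change -0.71, edgeR adjusted p = 0.0131). The gsox-1 gene, listed as F33H1.4, had 47, 68.1 and 96.2 CPM in the double mutant and 75.7, 77.4 and 82.5 CPM in gsox-1 libraries. It was not called (log2 change -0.16, SE 0.25, edgeR adjusted p = 0.748), and since both groups carry the label gsox-1, its level cannot check that label. F33H1.4 read 149.9, 159 and 179 CPM in xnp-1 libraries and 42.6, 61.5 and 66.7 CPM in N2 libraries, so every gsox-1 library lay above every N2 library, though edgeR did not call it between gsox-1 and N2 (log2 change 0.46, adjusted p = 0.882).

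In the double mutant, 114 genes were called at a Benjamini-Hochberg adjusted p under 0.05, which is 0.652% of those tested. Of these 71 were higher (0.406%) and 43 were lower (0.246%) than in gsox-1. The median log2 change was 1.79 among the higher genes and -1.65 among the lower ones, and 67 of the 71 and 39 of the 43 changed by more than 1. In each of the 114 genes the 3 double mutant libraries lay wholly above or wholly below the 3 gsox-1 libraries, as they did in 3451 (19.7%) of all genes tested. At an unadjusted p under 0.05 there were 2328 genes (13.3%), 1384 higher (7.91%) and 944 lower (5.4%), and DESeq2 called 591 (3.38%) at its adjusted p. The median log2 change over all genes tested was 0.01. Protein-coding genes made up 63 of the higher genes and all 43 of the lower ones.

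Genes of the germline small RNA machinery were among those that rose. snpc-1.2, which belongs to the small nuclear RNA activating protein complex family used in transcription of piRNA genes, had 107, 89.5 and 106 CPM in the double mutant, against 33.4, 32.8 and 36.8 CPM in gsox-1 libraries. It rose by 1.55 on the log2 scale (SE 0.15, edgeR adjusted p = 0.000466). pid-2, a germ granule protein needed for piRNA-induced silencing, had 64.0, 74.0 and 76.6 CPM in the double mutant, against 25.7, 25.0 and 25.5 CPM in gsox-1 (log2 change 1.49, SE 0.16, edgeR adjusted p = 0.000939). Neither gene's libraries overlapped between the genotypes, and each was called with any single library left out. Together they were 2 of the 25 piRNA pathway genes tested (8%, against 0.406% of all genes). They were the called members with any single library left out. Of the 25, 9 had an unadjusted p under 0.05 (13.3% of all genes did) and DESeq2 called 3 (3.38% of all genes). The list median was 0.00, with 12 members above 0. prg-1, the Piwi Argonaute itself, had 282, 460.4 and 539.9 CPM in the double mutant and 229, 227 and 217 CPM in gsox-1 libraries, without overlap, but was not called (log2 change 0.93, edgeR adjusted p = 0.182).

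Beyond that list, heri-1, a chromodomain protein that limits the inheritance of RNA interference, rose by 0.95 (SE 0.16, edgeR adjusted p = 0.0181). Its levels were 23.8, 24.1 and 27.4 CPM in the double mutant and 14.4, 11.5 and 13.1 CPM in gsox-1 libraries. nxf-2, a member of the nuclear RNA export factor family, and its neighbour set-31, which encodes a SET domain protein, rose side by side on chromosome V. nxf-2 had 48, 30.3 and 33.2 CPM in the double mutant and 13, 13.9 and 13.4 CPM in gsox-1 libraries (log2 change 1.47, edgeR adjusted p = 0.00745). set-31 had 179, 116 and 134 CPM in the double mutant and 55.1, 61.4 and 45.5 CPM in gsox-1 libraries (log2 change 1.40, edgeR adjusted p = 0.0103). In both genes replicate 1 was the highest double mutant library. rnh-1.3, which encodes an RNase H type nuclease, increased by 2.15 (SE 0.37, edgeR adjusted p = 0.0235), with 5.55, 8.87 and 7.61 CPM in the double mutant and 1.03, 1.21 and 2.73 CPM in gsox-1 libraries. Over all genes, edgeR called 0.652%, 13.3% had an unadjusted p under 0.05 and DESeq2 called 3.38%. edgeR called 0 of the 20 Argonautes (4 at an unadjusted p under 0.05, 2 by DESeq2), with a median of -0.20. It called 0 of the 32 nuclear RNAi, mutator and RNA-dependent RNA polymerase genes (3 unadjusted, 0 by DESeq2) and 0 of the 23 P granule and germ plasm genes (2 unadjusted, 1 by DESeq2), with medians of -0.02 and -0.05. heri-1 and nxf-2 are outside the rule for named genes and were chosen after their values were seen.

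sdha-2, a paralogue of the flavoprotein subunit of succinate dehydrogenase, rose evenly in the double mutant. It had 204, 223 and 220.4 CPM in the double mutant, against 73.3, 73.0 and 75.0 CPM in gsox-1 libraries, a rise of 1.55 (SE 0.14, edgeR adjusted p = 0.000462). The smallest adjusted p of all genes belonged to F17C11.11, a gene named by its sequence only, at 8.43e-05. F17C11.11 had 41.0, 47.1 and 55.2 CPM in the double mutant and 9.57, 8.62 and 8.77 CPM in gsox-1 libraries (log2 change 2.41, SE 0.16).

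F-box and MATH-domain genes formed the list with the most genes that rose. Proteins with an F-box or with paired MATH and BTB domains bring substrates to cullin ligases. Whether each MATH-domain gene of the list also has a BTB domain was not checked. Of the 395 genes listed, 247 were tested. Of these 8 rose (3.24%, against 0.406% of all genes) and 1 fell, with a list median of 0.40 and 182 members above 0. bath-45 had 8.69, 6.42 and 5.01 CPM in the double mutant and 1.74, 1.17 and 0.937 CPM in gsox-1 libraries, a rise of 2.39 (SE 0.33, edgeR adjusted p = 0.0062). fbxa-192 had 18.2, 17.7 and 15.8 CPM in the double mutant and 5.63, 4.54 and 4.58 CPM in gsox-1 libraries, a rise of 1.81 (SE 0.23, edgeR adjusted p = 0.00433). These 2 were the members called with any single library left out. fbxc-50, fbxa-158 and bath-29 rose by 1.77, 1.67 and 1.61, and fbxc-58, bath-15 and bath-30 by 1.25, 1.06 and 1.05. bath-29 and bath-30 lie within 13766 bases of each other on chromosome II. fbxa-158, fbxc-58, bath-15, bath-30 and math-38 are named after their values were seen. The member that fell, math-38, had 0.0448, 0.219 and 0.241 CPM in the double mutant and 0.939, 0.922 and 1.09 CPM in gsox-1 libraries. Reads that map to several places were not counted, so close paralogues in this list may be undercounted. Without replicate 1 of the double mutant the list median was 0.20 and 9 members were called. With 1 of the others left out, 2 to 6 were called, with 2 in the fits without gsox-1 replicate 1 or 3.

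Other genes that rose have scattered roles, and vet-2 is named here after its values were seen. scrm-4, of the phospholipid scramblase family, had 58.8, 33 and 30.9 CPM in the double mutant and 12.6, 10.8 and 11.0 CPM in gsox-1 libraries (log2 change 1.84, edgeR adjusted p = 0.00669). tsp-2, a tetraspanin, rose by 2.07, and clc-25, a claudin-like protein, by 1.49. The major sperm protein gene msp-65 had 7.95, 18.9 and 14.5 CPM in the double mutant and 2.16, 0.971 and 4.37 CPM in gsox-1 libraries (log2 change 2.47, edgeR adjusted p = 0.0479). edgeR called msp-65 alone among the 114 sperm genes tested (0.877%, against 0.652% of all genes). Of the 114, 31 had an unadjusted p under 0.05 (13.3% of all genes did) and DESeq2 called 9 (3.38% of all genes). The sperm list had a median of 0.47 with 85 members above 0, and its summed levels overlapped, at 2402 to 2973 CPM in the double mutant and 1253 to 2625 CPM in gsox-1 libraries. his-32, a core histone gene, and gst-30, a glutathione S-transferase, rose by 1.74 and 2.84 from levels under 1 CPM in gsox-1, and each lost its call when any single library was left out. vet-2, named as a very early transcript of the embryo, had 3.52, 3.50 and 3.52 CPM in the double mutant and 0.798, 1.26 and 0.911 CPM in gsox-1 libraries (log2 change 1.82, edgeR adjusted p = 0.0492). Its call too was lost when any single library was left out.

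**Figure D2:**
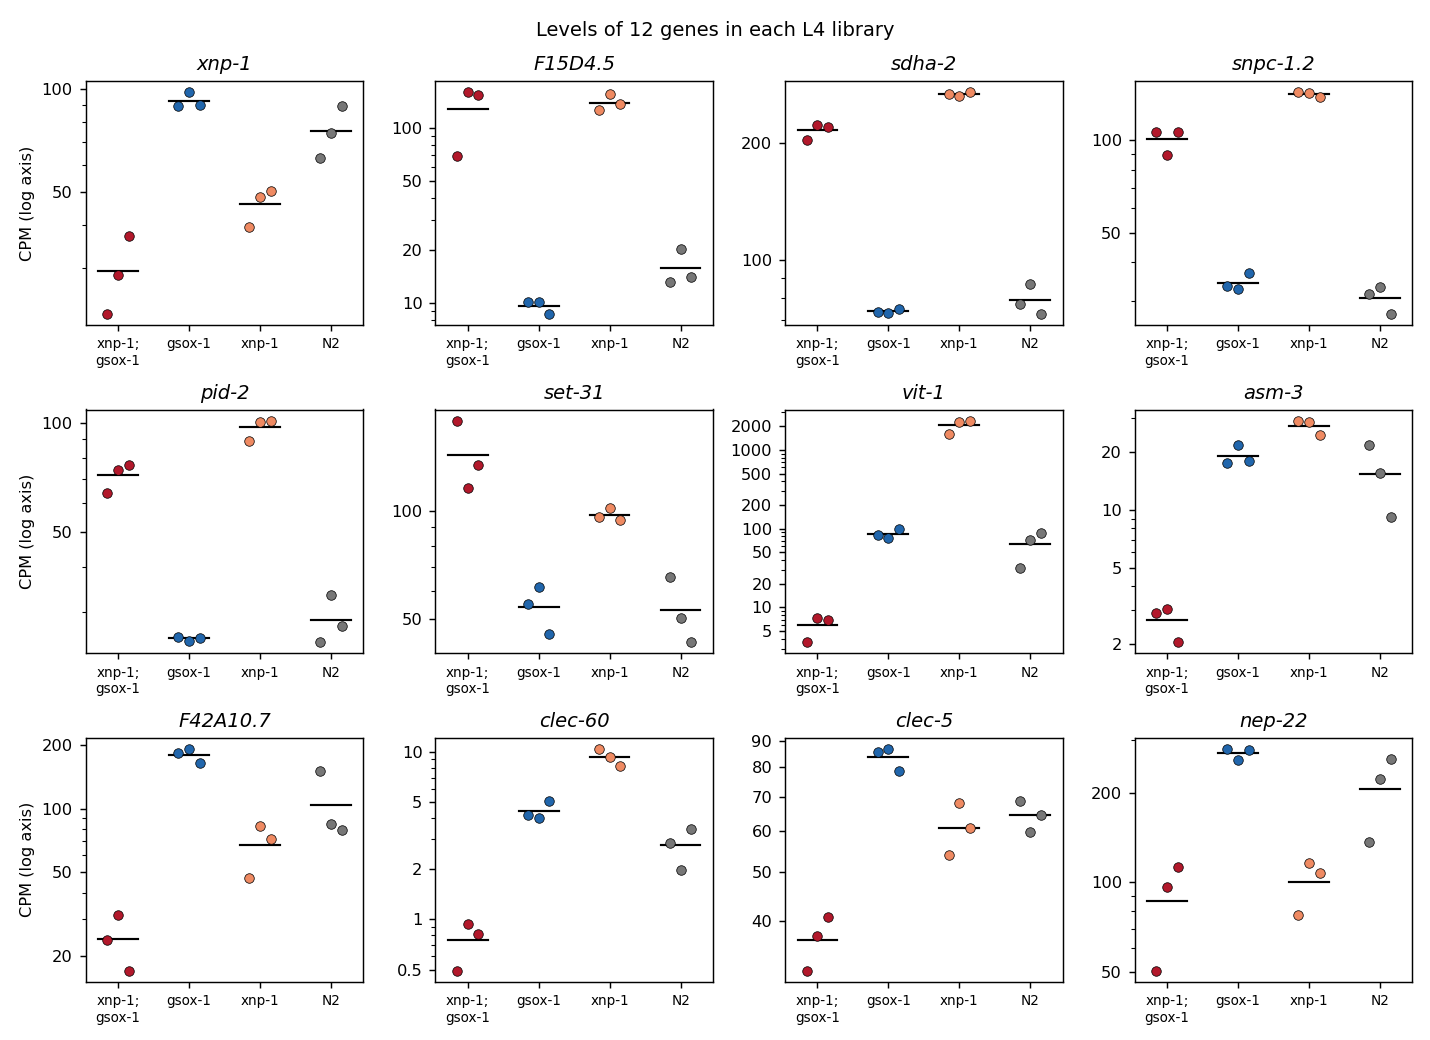
CPM of 12 called genes in each L4 library on log axes, 1 point per library and a line at the mean of 3. Genotypes run from xnp-1;gsox-1 and gsox-1 to xnp-1 and N2. sdha-2, snpc-1.2 and pid-2 are higher in xnp-1;gsox-1 than in gsox-1 and likewise higher in xnp-1 than in N2, while vit-1, asm-3 and clec-60 are lower in xnp-1;gsox-1 than in gsox-1 and higher in xnp-1 than in N2.

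Several called genes were neighbours. With a gap of at most 20000 bases between genes of the same direction, 22 of the 71 higher genes lay in 9 runs and 10 of the 43 lower genes in 5 runs. The positions are those of the deposited table (WormBase release WS280 gene models, chromosome, start and end). These runs, and the genes named only by their sequence, were picked out after their values were seen. Counts used the strand of each read, and how often neighbours change together elsewhere in these data was not tested.

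The run with the most genes lay on chromosome II at 13245376 to 13250063. It holds F15D4.5 and F15D4.6 on the plus strand and the annotated piRNA loci 21ur-10687 and 21ur-10492, both on the minus strand within the span of F15D4.5. F15D4.5 had 68.8, 160.1 and 154 CPM in the double mutant, against 10.1, 10.2 and 8.69 CPM in gsox-1 libraries, a rise of 3.72 (SE 0.32, edgeR adjusted p = 0.000422). Replicate 1 was the lowest double mutant library and still lay above every gsox-1 library. 21ur-10687 had 0.918, 1.6 and 1.2 CPM in the double mutant and 0.0469, 0.0243 and 0 CPM in gsox-1 libraries, and 21ur-10492 had 1.10, 3.50 and 1.93 CPM in the double mutant and 0.141, 0.291 and 0.156 CPM in gsox-1. Counts on these 21-base features come from poly(A) reads on the minus strand and are no measure of mature piRNAs. F15D4.6 had 2.51, 4.72 and 4.02 CPM in the double mutant and 1.43, 0.874 and 1.09 CPM in gsox-1 libraries (log2 change 1.72, edgeR adjusted p = 0.0257).

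On chromosome V, F56A4.3 (2453414 to 2456147) and the adjacent irld-35 (2456176 to 2458286) had the 2 highest fitted changes. F56A4.3 had 72.8, 29.6 and 22.2 CPM in the double mutant, against 0.0939, 0.0728 and 0.26 CPM in gsox-1 libraries, a log2 change of 8.18 (SE 0.69, edgeR adjusted p = 0.000422). irld-35 had 0.694, 0.24 and 0.65 CPM in the double mutant and no count in the 3 gsox-1 libraries, which makes it at least 21.5-fold higher against a floor of 3 counts over the gsox-1 group. The other background gave another order, since F56A4.3 had 28.8, 23.4 and 18.8 CPM in xnp-1 and 302, 165 and 113 CPM in N2 libraries. irld-35 had 0.0494, 0.295 and 0.0471 CPM in xnp-1 and 2.04, 2.63 and 1.81 CPM in N2 libraries. For F56A4.3 the gsox-1 libraries lay below every library of the other 3 genotypes by a wide margin, and for irld-35 the N2 libraries lay above all others.

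Also on chromosome V, B0507.7, ddn-1 and B0507.8 (8757312 to 8762961) rose by 2.81, 1.47 and 3.13. B0507.8 had 5.19, 4.37 and 2.65 CPM in the double mutant and 0.375, 0.291 and 0.729 CPM in gsox-1 libraries, and it reached 26.5 to 35.9 CPM in xnp-1 libraries. On chromosome III, Y39E4B.5 rose by 1.41 beside snpc-1.2, and the pair spans 13165659 to 13173106 on opposite strands. Among the lower genes, clec-70 and clec-71 were neighbours on chromosome IV (3932708 to 3939979). Y48G9A.7 on chromosome III had no count in double mutant libraries and 0.516, 0.291 and 0.521 CPM in gsox-1 libraries, at least 19.5-fold lower against the same kind of floor over the double mutant group. Y48G9A.7 was likewise without a count in xnp-1 libraries and had 0.598, 0.585 and 0.588 CPM in N2, and its call was lost when any single library was left out.

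The yolk protein gene vit-1 fell in the double mutant. It had 3.63, 7.34 and 6.89 CPM in the double mutant, against 82.3, 75.4 and 99.0 CPM in gsox-1 libraries, and fell by 3.84 on the log2 scale (SE 0.40, edgeR adjusted p = 0.000939). It was also lower in the double mutant than in N2 (log2 change -3.41, edgeR adjusted p = 0.00242). vit-1 was the called member of 6 vitellogenins (16.7%, against 0.246% of all genes called lower), with a list median of -4.19 and all 6 members below 0. DESeq2 called 4 of the 6, against 3.38% of all genes. vit-2 had 2.37, 5.29 and 3.13 CPM in the double mutant and 19.6, 17.6 and 103 CPM in gsox-1 libraries (log2 change -3.70, edgeR adjusted p = 0.126), and vit-6 had 1.43, 7.08 and 3.23 CPM in the double mutant and 32.8, 18 and 199 CPM in gsox-1 libraries (log2 change -4.41, edgeR adjusted p = 0.13). Replicate 3 of gsox-1 was the highest library for all 6 genes, and without it the list median was -2.53. Summed over the 6 genes the level was 7.79, 13.3 and 21.0 CPM in the double mutant and 113, 139 and 449 CPM in gsox-1 libraries, against 17337 to 30617 CPM in xnp-1 and 56.1 to 583 CPM in N2 libraries. vit genes are near-identical in part, and reads shared between them were not counted.

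C-type lectins, secreted or membrane proteins many of which respond to microbes, formed the list with the most genes that fell. Of the 240 listed, 152 were tested. Of these 9 fell (5.92%, against 0.246% of all genes) and 0 rose, and the list median was -0.13 with 66 members above 0. At an unadjusted p under 0.05, 6 lectins were higher and 19 lower, against 7.91% and 5.4% of all genes. DESeq2 called 13 in either direction, against 3.38% of all genes. clec-60, known to be induced by bacterial infection, had 0.493, 0.94 and 0.819 CPM in the double mutant and 4.18, 4.03 and 5.05 CPM in gsox-1 libraries and fell by 2.55 (SE 0.30, edgeR adjusted p = 0.00252). clec-5 had 32.1, 37.4 and 40.8 CPM in the double mutant and 85.6, 86.7 and 78.4 CPM in gsox-1 libraries and fell by 1.19 (SE 0.15, edgeR adjusted p = 0.00446). clec-10 had 15.9, 17.1 and 15.4 CPM in the double mutant and 42, 41.7 and 46.5 CPM in gsox-1 libraries and fell by 1.43 (SE 0.19, edgeR adjusted p = 0.0056). clec-218 had 10.0, 9.55 and 6.17 CPM in the double mutant and 22.9, 24.9 and 30.7 CPM in gsox-1 libraries and fell by 1.61 (SE 0.22, edgeR adjusted p = 0.00638). These 4 kept their call with any single library left out. clec-70, clec-172 and clec-71 fell by 3.20, 2.69 and 2.53, and clec-80 and clec-170 by 1.6 and 1.36. clec-71 and clec-172 are named after their values were seen, and reads common to clec-70 and clec-71 were not counted. With 1 library left out, 4 to 7 lectins were called, with 7 in the fit without replicate 1 of the double mutant and 4 in those without its replicate 3 or without gsox-1 replicate 1. Of the 44 innate immunity genes tested edgeR called 0, against 0.652% of all genes. At an unadjusted p under 0.05 there were 7 of them, against 13.3% of all genes, and DESeq2 called 0. Their median was 0.17. The sums over all lectins were 3115 to 3762 CPM in the double mutant and 3870 to 4041 CPM in gsox-1 libraries.

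Some lipid enzymes were also among the genes that fell, grouped here after their values were seen. asm-3, an acid sphingomyelinase that releases ceramide, had 2.89, 3.06 and 2.05 CPM in the double mutant, against 17.5, 21.6 and 18 CPM in gsox-1 libraries and fell by 2.83 (SE 0.30, edgeR adjusted p = 0.000939). gba-2, a glucocerebrosidase, had 2.33, 3.10 and 1.73 CPM in the double mutant and 8.52, 8.4 and 9.08 CPM in gsox-1 libraries (log2 change -1.86, edgeR adjusted p = 0.0255). asah-1, an acid ceramidase, had 37.3, 42 and 29 CPM in the double mutant and 65, 70.5 and 71.2 CPM in gsox-1 libraries (log2 change -0.93, edgeR adjusted p = 0.034). spl-2, of the sphingosine phosphate lyase family, fell by 1.04, and the lysosomal lipase lipl-1 by 1.66. Of 27 sphingolipid enzymes gathered by name stem after these 4 had been seen to fall, 4 fell (asm-3, gba-2, asah-1 and spl-2). Over all genes 0.246% fell, but the family was built around the 4, so their count is a description. Of the 27, 16 were below 0, with a median of -0.16. cpt-5, of the carnitine palmitoyltransferase family, had 38.4, 22.4 and 18.3 CPM in the double mutant and 91.7, 106 and 79.2 CPM in gsox-1 libraries (log2 change -1.81, edgeR adjusted p = 0.0255). asah-1 and spl-2 were named after their values were seen. asm-3 was the member of this group that kept its call with any single library left out. lipl-1 was the 1 called gene of 44 in the fatty acid and peroxisomal list (2.27%, against 0.652% of all genes), whose median was -0.23.

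Further genes that fell include nep-22, a neprilysin-family peptidase, with 50.6, 96.6 and 112 CPM in the double mutant and 279.9, 257 and 278 CPM in gsox-1 libraries (log2 change -1.65, edgeR adjusted p = 0.0368). gly-4, a transferase that starts O-linked glycans and is named after its values were seen, fell by 0.97, the glucuronosyltransferase gene ugt-30 by 1.49 and the beta-lactamase domain gene lact-6 by 2.36. F42A10.7, named by its sequence only, had 23.7, 31.4 and 17.1 CPM in the double mutant and 184, 192 and 164 CPM in gsox-1 libraries and fell by 2.90 (SE 0.32, edgeR adjusted p = 0.00126). The chemoreceptor sri-40 fell by 3.18 at under 1 CPM in every gsox-1 library. It was the 1 called gene of the 160 chemoreceptors tested, or 0.625%, near the 0.652% of all genes called either way.

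Of 8 lists of somatic tissues, the summed levels of 4 were lower in every double mutant library than in any gsox-1 library, that of 1 was higher, and those of 3 overlapped. Of single genes, 19.7% did not overlap. Lack of overlap was not particular to these lists. Meiosis genes summed to 975 to 1113 CPM in the double mutant and 923 to 961 CPM in gsox-1 libraries. piRNA pathway genes summed to 966 to 1269 CPM and 779 to 796 CPM in the same order. Body wall muscle genes summed to 16093 to 22412 CPM in the double mutant and 25059 to 26609 CPM in gsox-1 libraries, pharynx genes to 606 to 988 CPM in the double mutant and 1253 to 1413 CPM in gsox-1, and intestine genes to 8543 to 10462 CPM in the double mutant and 11124 to 11594 CPM in gsox-1. None of these 3 ranges overlapped. edgeR and DESeq2 each called 0 of 33 muscle, 0 of 31 pharynx and 0 of 29 intestine genes, with medians of -0.37, -0.57 and -0.09. Over all genes edgeR called 0.652% and DESeq2 3.38%. At an unadjusted p under 0.05 there were 3 muscle, 1 pharynx and 3 intestine genes, against 13.3% of all genes. Genes of the vulva, uterus and somatic gonad, the remaining list that was lower, summed to 612 to 1145 CPM in the double mutant and 1176 to 1231 CPM in gsox-1 libraries. Of these 31 genes edgeR and DESeq2 each called 0, and 4 had an unadjusted p under 0.05. Neuropeptide genes went the other way by a narrow margin, with 1704 to 2731 CPM in the double mutant and 1596 to 1694 CPM in gsox-1 libraries, a median of 0.30 and 99 of 128 above 0. Of these 128 genes edgeR called 0, 24 had an unadjusted p under 0.05 and DESeq2 called 5. Pan-neuronal genes overlapped, at 1049 to 1752 CPM in the double mutant and 1695 to 1729 CPM in gsox-1 libraries, as did the chemoreceptor and male-specific lists. Moulting genes summed to 4957 to 9772 CPM in the double mutant and 9871 to 9994 CPM in gsox-1 libraries, with 0 of 40 called by edgeR or DESeq2, 5 at an unadjusted p under 0.05 and a median of -0.42. The part of these tissue levels in the changes of vit-1, the lectins and the lipid enzymes was not tested. elt-2, the intestinal GATA factor, had 42.7, 42.6 and 47.7 CPM in the double mutant and 41.5, 43.1 and 48.5 CPM in gsox-1 libraries. The oocyte yolk receptor rme-2 had 11.4, 29.4 and 29.4 CPM in the double mutant and 23.7, 17.2 and 26.5 CPM in gsox-1 libraries.

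The same question was asked of xnp-1 in the wild-type background, where 4071 genes (23.3%) were higher and 4421 (25.3%) lower in xnp-1 than in N2. Either way the called share was 48.5%. In xnp-1 libraries col-19 had 2442 to 2670 CPM, against 2.64 to 61.4 CPM in N2 libraries. dpy-7 had 4.05 to 16.8 CPM in xnp-1 and 122 to 528 CPM in N2. rme-2 had 548 to 673 CPM in xnp-1 and 17.6 to 43.8 CPM in N2. Stage and genotype cannot be told apart in these libraries, and the part of stage was not tested. The comparison of xnp-1 with N2 shares no library with that of the double mutant and gsox-1, though both came from 1 fit with a common estimate of the spread. Of the 71 genes that rose in the double mutant, 56 were also called higher in xnp-1, 5 lower and 10 neither way, and their median log2 change over N2 was 1.82. The 56 are 78.9% of the 71 and 1.38% of the 4071. Of the 43 that fell, 20 were called lower in xnp-1, 7 higher and 16 neither way, with a median of -0.61. The 20 are 46.5% of the 43 and 0.452% of the 4421. Set against N2 instead, gsox-1 had 1 gene higher (0.00572%) and 3 lower (0.0172%), 4 in all (0.0229%). The 3 lower ones were among the 71 genes that rose in the double mutant. Of the 71, 43 were called higher in the double mutant than in N2 and 28 were not called. Among the 28 were fbxa-192 (log2 change 0.47, edgeR adjusted p = 0.406) and rnh-1.3 (log2 change 0.63, edgeR adjusted p = 0.4997). Of the 43 genes that fell, 30 were called lower in the double mutant than in N2. The double mutant against N2 had 75 higher (0.429%) and 107 lower (0.612%), or 1.04% either way, and against xnp-1 it had 3896 higher (22.3%) and 3835 lower (21.9%), or 44.2%. These 3 comparisons share libraries with those above. Across all genes tested the Pearson correlation of the 2 changes was 0.208 and the Spearman correlation 0.0988, a description over genes, which are not independent replicates.

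The difference of the 2 changes was itself tested, as the change of the double mutant over gsox-1 minus that of xnp-1 over N2. It was called for 5826 genes (33.3%), 3007 (17.2%) above 0 and 2819 (16.1%) below 0. Stage and genotype cannot be told apart in this difference either. sdha-2, with 267, 264 and 270.4 CPM in xnp-1 and 76.8, 86.7 and 72.7 CPM in N2 libraries, was not called for a difference (difference -0.21, edgeR adjusted p = 0.433). pid-2 was not called either, with 89.1, 101 and 101 CPM in xnp-1 and 24.8, 33.5 and 27.5 CPM in N2 libraries (difference -0.27, edgeR adjusted p = 0.362). Nor was F15D4.5, with 127, 156 and 136 CPM in xnp-1 and 13.3, 20.5 and 14.1 CPM in N2 libraries (difference 0.59, edgeR adjusted p = 0.279). Of the 71 genes that rose, 38 were called higher in xnp-1 with no difference called between backgrounds, and 16 were called higher in xnp-1 with a change that was smaller in the double mutant. fbxc-50 belongs to the 16, with 49.6, 42.8 and 48.8 CPM in xnp-1 and 1.25, 2.20 and 1.64 CPM in N2 libraries against its 3.81, 5.81 and 4.58 CPM in the double mutant (difference -3.02, edgeR adjusted p = 0.000232).

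For 7 genes the direction was opposite, with a fall in the double mutant, a rise in xnp-1 and a called difference. They are vit-1, asm-3, clec-60, clec-218, sri-40, math-38 and spl-2. vit-1 had 1592, 2273 and 2356 CPM in xnp-1 and 31.5, 71.4 and 87.5 CPM in N2 libraries, and the difference was -8.87 (SE 0.58, edgeR adjusted p = 7.9e-06). asm-3 had 29.1, 28.5 and 24.5 CPM in xnp-1 and 21.6, 15.5 and 9.17 CPM in N2 libraries (difference -3.66, edgeR adjusted p = 0.000144). clec-60 had 10.4, 9.28 and 8.23 CPM in xnp-1 and 2.87, 1.98 and 3.46 CPM in N2 libraries (difference -4.30, edgeR adjusted p = 6.99e-05). clec-218 had 36, 38.2 and 42.6 CPM in xnp-1 and 18.6, 13.2 and 15.3 CPM in N2 libraries (difference -2.91, edgeR adjusted p = 0.000121). Conversely, 5 genes rose in the double mutant and fell in xnp-1, among them the cuticlin-like gene cutl-20. cutl-20 had 7.5, 6.69 and 8.0 CPM in the double mutant and 1.5, 1.63 and 1.61 CPM in gsox-1 libraries, but 2.57, 2.81 and 3.55 CPM in xnp-1 and 4.01, 8.17 and 7.82 CPM in N2 libraries (difference 3.39, edgeR adjusted p = 0.000201). It was not called between the double mutant and N2 (log2 change 0.15, edgeR adjusted p = 0.904). In gsox-1 it was lower than in N2 (log2 change -2.07, edgeR adjusted p = 0.0494). argk-1, an arginine kinase, and scb-1 rose by 1.76 and 1.79 in the double mutant and were not called in xnp-1, with differences of 2.06 and 2.02 (edgeR adjusted p = 0.0013 and 0.000635).

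**Figure D3:**
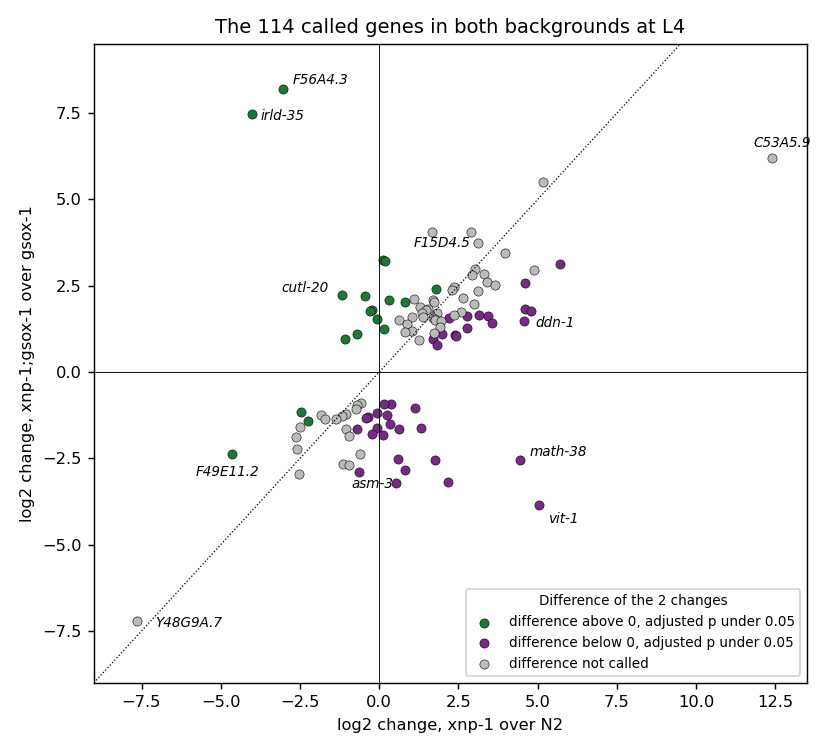
log2 change of the 114 called genes in xnp-1;gsox-1 over gsox-1 (vertical) against their log2 change in xnp-1 over N2 (horizontal), coloured by the test of the difference. The dotted line marks equal changes. Most of the 71 higher genes lie at positive values on both axes, vit-1 and math-38 lie at the lower right, and F56A4.3 and irld-35 at the upper left.

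Several lists with many calls in xnp-1 had none by edgeR in the double mutant, where edgeR called 0.652% of all genes. At that share lists of these sizes would hold few calls or none, so their lack of calls is near that of all genes. Over all genes, 13.3% had an unadjusted p under 0.05 in the double mutant and DESeq2 called 3.38%, the shares against which the counts in brackets are to be read. In xnp-1 over N2, edgeR called 23.3% of all genes higher and 25.3% lower. Of the 41 meiosis genes tested 0 were called in the double mutant (10 at an unadjusted p under 0.05, 4 by DESeq2), against 41 higher in xnp-1, with medians of 0.17 and 1.46. Of the 27 oocyte and maternal RNA regulators 0 were called in the double mutant (2 unadjusted, 1 by DESeq2), against 23 higher and 2 lower in xnp-1, with medians of -0.03 and 3.52. Of the 16 eggshell genes 0 were called in the double mutant (1 unadjusted, 0 by DESeq2), against 16 higher in xnp-1, with medians of 0.21 and 4.17. Of the 160 collagens 0 were called in the double mutant (4 unadjusted, 2 by DESeq2), against 32 higher and 87 lower in xnp-1, with medians of -0.28 and -1.97. The share of collagens higher in xnp-1 was below the 23.3% of all genes. Of the 41 DNA replication and cell cycle genes 0 were called in the double mutant (2 unadjusted, 0 by DESeq2), against 40 higher in xnp-1, with medians of -0.02 and 1.74. By edgeR, 12 of the 46 lists examined held a gene called in the double mutant. Beside those described, they include the cuticlin list with cutl-20, the core histone list with his-32, the DNA damage list with rnh-1.3 and the detoxification list with gst-30 and ugt-30. In the other 34 lists the medians ran from -0.57 in the pharynx list to 0.62 in the male-specific list.

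**Figure D4:**
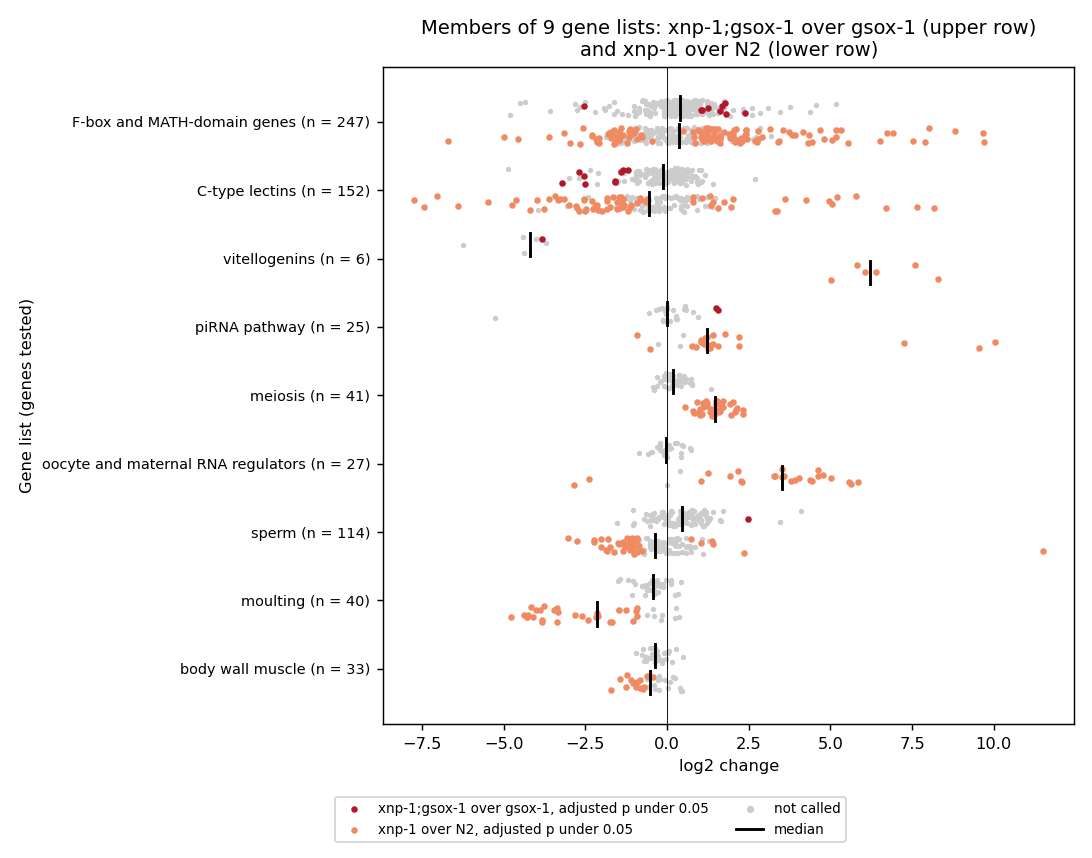
log2 changes of the tested members of 9 gene lists, 1 point per gene, with xnp-1;gsox-1 over gsox-1 in the upper row and xnp-1 over N2 in the lower row of each list. Coloured points have an adjusted p under 0.05 and black bars are medians. Vitellogenins lie at a median of -4.19 in the upper row and above 0 in the lower, and C-type lectins hold 9 coloured points in the upper row.

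Embryos and L1 larvae gave a further view of xnp-1 against N2 in libraries that no L4 comparison used. There 197 genes (1.11%) were called in embryos, 76 (0.43%) higher and 121 (0.684%) lower in xnp-1. In L1 larvae 85 genes (0.481%) were called, 64 (0.362%) higher and 21 (0.119%) lower in xnp-1. Of the 67 genes that rose in the double mutant and could be tested there, 13 were higher and 3 lower in xnp-1 embryos, and 12 were higher and 1 lower in xnp-1 L1 larvae. Of the 39 that fell and could be tested, 4 were lower and 0 higher in embryos, and edgeR called 0 of the 39 in L1 larvae, where 32 were below 0. Turned round, 49 genes were higher in xnp-1 at both stages, 47 of them could be tested at L4, and 10 of these rose and 0 fell in the double mutant (0.406% and 0.246% of all genes did), with 41 above 0 and a median of 0.85. The 10 are F15D4.5, F15D4.6, rnh-1.3, fbxa-192, snpc-1.2, sdha-2, set-31, F21F3.4, WBGene00010209 and WBGene00077636. In xnp-1 over N2, F15D4.5 had a log2 change of 2.96 in embryos and 2.69 in L1 larvae, and sdha-2 one of 2.39 in embryos and 2.55 in L1 larvae. Of an earlier list of 18 genes chosen on these same data as higher in xnp-1 at both stages, 7 rose in the double mutant and the median was 0.94, which is no independent evidence.

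The 114 calls rested on few libraries. With each of the 6 libraries left out in turn, the higher genes numbered 24 to 76 and the lower genes 14 to 49. Without replicate 1 of the double mutant, the library that stood apart, 76 genes were higher and 49 lower, and 86 of the 114 were called again. Without gsox-1 replicate 1, 2 or 3 the higher genes numbered 24, 24 and 32 and the lower genes 14, 15 and 19, and without double mutant replicate 2 or 3 they were 33 and 48 higher and 20 and 25 lower. As none of the 114 overlapped between the genotypes, signs could hardly turn, and each gene kept its sign in all of these fits. Called in each were 18 higher genes, among them F15D4.5, F56A4.3, sdha-2, snpc-1.2, pid-2, fbxa-192, bath-45, cutl-20, scb-1 and F17C11.11, and 13 lower genes, among them vit-1, asm-3, clec-5, clec-10, clec-60, clec-218, F42A10.7 and xnp-1.

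**Figure D5:**
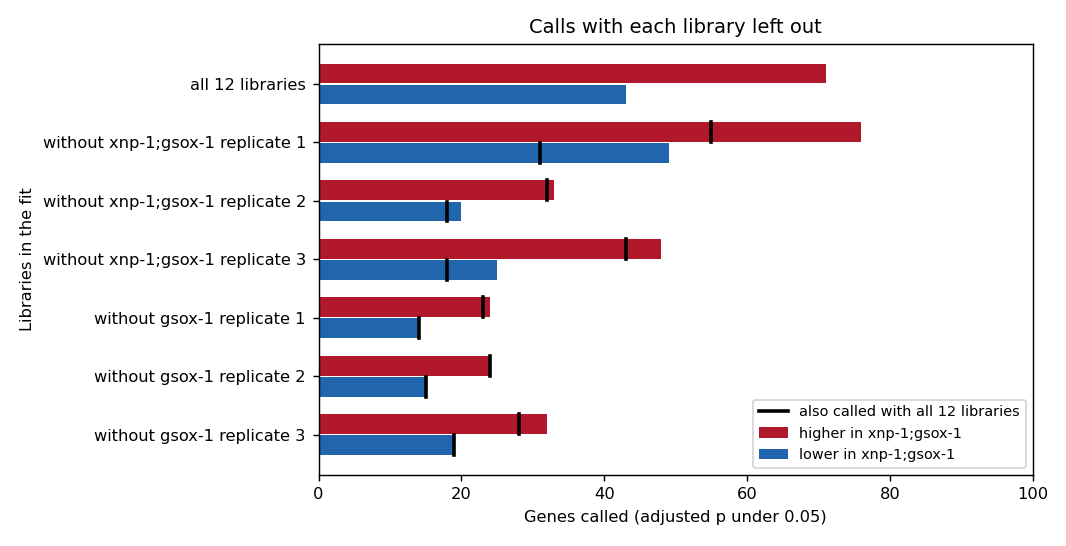
Number of genes called higher (red) and lower (blue) in xnp-1;gsox-1 with all 12 L4 libraries in the fit and with each of the 6 compared libraries left out. Black ticks mark how many were also called with all 12. The counts run from 24 to 76 higher and from 14 to 49 lower.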

How the data were processed

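Whole-number read counts for each gene of the WS280 annotation were deposited by the authors without scaling. The file headers name featureCounts 2.0.6 for L4, which assigned reads by strand, with a minimum mapping quality of 10, both mates of a pair counted and reads of several places left out, and featureCounts 2.0.1 for embryos and L1. FastQC, Trim Galore, STAR and SAMtools came before, per the submitters' processing notes.

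Genes were compared by edgeR 4.0.16 under R 4.3.3 (filter filterByExpr, TMM, 4 groups of 3 libraries, robust quasi-likelihood F test, two-sided), tested on simulated data first. SE is the absolute log2 change over the square root of F. Floors cover counting error only. DESeq2 1.42.0 was an alternative. Named genes were xnp-1, gsox-1, the 15 named genes of largest change per direction at a mean log2 CPM of at least 1 without overlap, up to 4 called members per list, and 5 genes per direction of largest difference between backgrounds. Symbols came from a gene name table, and gsox-1 from RefSeq's locus tag (WBcel235). The comparison and the 46 lists were chosen with earlier results of these data known. The table named for 22G-RNAs was not used here.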

Additional observations from a re-analysis of the deposited data

Results flagged for a closer look

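The change in the double mutant xnp-1;gsox-1 over gsox-1 was compared with the change in xnp-1 over N2. By the edgeR test of the difference itself, 30 of the genes named by rule differed at an adjusted p under 0.05. Over all genes tested the share called was 33.3%. The 30 include the genes named for the largest difference between backgrounds, which were picked on this same difference. Their calls are therefore no separate evidence, and the 30 are given as a list only. The values below are differences of log2 changes, the first change minus the second, and a positive value means that the change in the gsox-1 background was the higher.

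Differences above 0 were 11.21 for F56A4.3, 11.49 for irld-35, 3.39 for cutl-20, 2.06 for argk-1, 2.02 for scb-1, 1.77 for tsp-2 and 0.83 for clec-10. The other 3 had no count in xnp-1 libraries. Y6G8.16 (difference 12.05) had 0.134, 0.219 and 0 CPM in the double mutant, none in gsox-1, and 0.299, 0.39 and 0.245 CPM in N2. clec-219 (10.42) had 0.358, 0 and 0 CPM in the double mutant, 0.0469, 0 and 0 CPM in gsox-1, and 0.249, 1.12 and 0.539 CPM in N2. gmd-2 (10.18) had 2.28, 5.03 and 2.75 CPM in the double mutant, 1.13, 0.631 and 1.04 CPM in gsox-1, and 1.25, 0.585 and 1.08 CPM in N2. For genes without a count in a group the size of the difference depends on the prior count of the fit and is no bound.

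Differences below 0 were -8.87 for vit-1, -5.36 for sri-40, -4.30 for clec-60, -3.72 for clec-70, -3.66 for asm-3, -3.02 for fbxc-50, -2.91 for clec-218, -2.30 for lipl-1, -1.85 for ugt-30, -1.57 for cpt-5, -1.17 for bath-29, -1.10 for clec-5 and -0.65 for snpc-1.2. The mutated genes themselves were at -0.94 for xnp-1 and -1.67 for gsox-1 (F33H1.4). A further 4 genes were at 0.245 CPM or less in all libraries except those of xnp-1. skr-7 (-15.88) had 11.7, 9.46 and 10.1 CPM in xnp-1, ZK813.1 (-13.93) had 183, 157 and 186 CPM, K01G12.3 (-13.29) had 4.45, 3.92 and 5.72 CPM, and C31G12.1 (-13.20) had 5.64, 2.61 and 4.78 CPM. The fork head gene fkh-5 (-12.51) had no count in the double mutant, 0.141, 0.194 and 0 CPM in gsox-1, 0.544, 0.295 and 0.518 CPM in xnp-1 and no count in N2 libraries.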

How the results depend on the processing

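The number of calls between xnp-1;gsox-1 and gsox-1 depended on the fit. All 114 genes kept their sign in each alternative run, which their lack of overlap between the genotypes all but fixed in advance. DESeq2 called 364 genes higher and 227 lower, and the 6 compared libraries alone gave 15 higher and 8 lower. Scaling by library totals gave 107 higher and 40 lower, or 72.8% higher, and moved the median log2 change of all genes to 0.09. Size factors of DESeq2 in edgeR gave 75 and 43, no low-count filter 100 and 44, and a fit that was not robust 75 and 44. Leaving out 1 library gave 24 to 76 higher and 14 to 49 lower genes. In embryos and L1 larvae, DESeq2 called 181 and 129 genes higher in xnp-1.

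Same-numbered libraries of xnp-1;gsox-1 and gsox-1 did not deviate together (Pearson correlation of their deviations from the group means -0.026, -0.237 and -0.014). Replicate 1 had the highest mitochondrial share of its genotype in xnp-1;gsox-1 (5.52%), N2 (4.13%) and xnp-1 (1.88%), and the lowest in gsox-1 (2.03%). Whether libraries of the same number share a batch was not tested. With the number as a replicate block, 79 genes were higher and 56 lower over 12 libraries, and 34 higher and 23 lower over the 6 libraries.

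Without replicate 1 of xnp-1;gsox-1, clec-219 turned to -2.67 (edgeR adjusted p = 0.79) and gsox-1 (F33H1.4) to 0.065 (edgeR adjusted p = 0.957). Leaving out 1 library gave -2.67 to 5.35 for clec-219 and -0.45 to 0.065 for F33H1.4, neither called. Over all named genes and alternatives, 487 values kept direction and side of the threshold, 140 lost their call, 1 gained it and 2 turned sign. Groups of 3 libraries limit the precision, and 40 of the genes tested had no count in the 6 libraries. Without replicate 1 of xnp-1;gsox-1 the medians of Argonautes, of oocyte regulators and of DNA replication genes turned to 0.09, 0.31 and 0.10. List medians under other settings were added after seeing the data. The causes were not tested.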

Other observations

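Sphingolipid enzymes were gathered by name stem (asm, asah, gba, spl, sphk, sptl, hyl, lagr, sms, cgt and cerk) after asm-3, gba-2, asah-1 and spl-2 had been seen to fall, so the count is a description. Of 27 tested, 4 fell and 0 rose in xnp-1;gsox-1 (0.246% and 0.406% of all genes did), with 16 below 0 and a median of -0.16. asm-2, the closest of the others to the threshold, averaged 16.3 CPM in xnp-1;gsox-1 and 39.2 CPM in gsox-1 libraries (log2 change -1.27, edgeR adjusted p = 0.0628). In xnp-1 against N2 the same 27 enzymes had 6 higher, 5 lower and a median of -0.02.

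Called genes were spread over the nuclear chromosomes. Chromosome V held 21 of the higher genes (0.578% of those tested there) and chromosome X 5 (0.201%). Among the lower genes, 10 lay on chromosome IV (0.332% of those tested there), 10 on V (0.275%) and 2 on I (0.0731%). Over all genes the shares were 0.406% higher and 0.246% lower.

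Transthyretin-related genes had a median of 0.61 in xnp-1;gsox-1 over gsox-1, with 51 of 57 above 0. edgeR called 0 of the 57, against 0.652% of all genes. At an unadjusted p under 0.05 there were 16, against 13.3% of all genes, and DESeq2 called 3, against 3.38%. Without replicate 1 of xnp-1;gsox-1 their median was 0.09. Their summed levels were 1870 to 3373 CPM in xnp-1;gsox-1 and 1893 to 2018 CPM in gsox-1 libraries.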
